A study of Mus musculus with 6 samples.

Results

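The genes described here encode 43 core proteins of the spliceosome, the machine that removes introns from nuclear transcripts, among them Bcas2, a subunit of the PRP19 complex. The RNA came from blood stem cells of mouse marrow taken through the gate KLS CD34-, which keeps cells with Kit and Sca-1 on their surface and none of the lineage markers or CD34. The floxed group held 3 arrays from animals whose beta-catenin gene was floxed and that carried Vav-Cre, and 3 further arrays were labelled control. Vav-Cre drives recombination in blood-forming cells generally, so it is not restricted to stem cells. The labels give neither the genotype of the controls, nor the age of the animals, nor whether a replicate was 1 animal or a pool, so the spread between arrays may be technical. Members were chosen as a list of named subunits, and the list was proposed with values of the floxed and control arrays in view. Differences of members between floxed and control arrays are therefore given as a description, and the SEs, intervals and counts of calls from the fit over all genes support nothing about them. Of the 43 listed genes, 41 had probe sets annotated to 1 gene alone, and all 41 also passed the filter on dim probe sets, out of 14586 genes in all. Snrpd2 had 6 probe sets, each shared with other annotated genes, and Snrnp40 had 0, so neither was measured.

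An intron is removed by small nuclear ribonucleoproteins (snRNPs) that assemble on each new transcript. The U1 snRNP recognises the 5′ splice site and the U2 snRNP, guided by the U2AF heterodimer, recognises the branch site and the 3′ end of the intron. The U4/U6.U5 tri-snRNP then joins, U4 is released, and the PRP19 complex stabilises the active centre made of U6, U2 and U5. Sm proteins form a ring on the U1, U2, U4 and U5 RNAs, and the related LSm proteins form a ring on U6. Genes for splicing factors, SF3B1 and U2AF1 among them, are recurrently mutated in human clonal blood disorders.

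Values are log2 expression levels as deposited, and a gene's value on an array is the median over its probe sets whose mean over the 6 arrays reached 7.60. Levels of different genes rest on different probes and are not set against each other. In these bulk samples, fewer cells of a type and less RNA per cell cannot be told apart. The control arrays differed among themselves more than the floxed arrays did. Across genes, which are not replicates, control arrays correlated at 0.880 to 0.934 with each other and floxed arrays at 0.962 to 0.972. Among the 14586 genes, control replicate 3 was the lowest of the 6 arrays for 34.7% and control replicate 1 for 22.4%, while control replicate 1 was the highest for 3276 genes, the most of any array. The control SD exceeded the floxed SD for 73.6% of genes. Of all genes tested, Xist had the highest log2 difference, at 1.83, and did not pass in limma. The sex of the animals was not taken into account, and its part in the differences was not tested. In the targeted gene Ctnnb1, 5 probe sets passed in limma with log2 differences from −6.90 to −2.51, which is in the direction of the labels. The gene median of Ctnnb1, the measure used for the members, had a log2 difference of −0.88 and did not pass (limma, adjusted p 0.67). The gate genes Kit and Ly6a, which encodes Sca-1, had mean log2 values of 11.73 and 11.27 on floxed arrays and of 11.84 and 11.29 on control arrays. Cd34, whose surface protein the gate selects against, had mean log2 values of 12.65 on floxed arrays and 12.68 on control arrays, and the arrays do not measure surface protein.

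Most members had a slightly higher mean on the floxed arrays than on the control arrays, and Bcas2 had the highest difference of the list. The log2 difference was above 0 for 32 of the 41 measured members, where 54.2% of all genes tested lay above 0. The median over members was 0.11, against 0.02 over all genes tested, and members ran from −0.23 for Sf3b4 to 0.74 for Bcas2. In 9 members all floxed values lay above all control values, against 5.57% of all genes. In 0 members did all floxed values lie below all control values, against 2.87% of all genes. With limma across all genes, 0 of 41 members passed an adjusted p of 0.05, where 0% of all genes did. At an unadjusted p under 0.05 there were 5 members, against 3.70% of all genes. The list was chosen with this contrast known, so nothing is read from these counts.

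**Figure D1:**
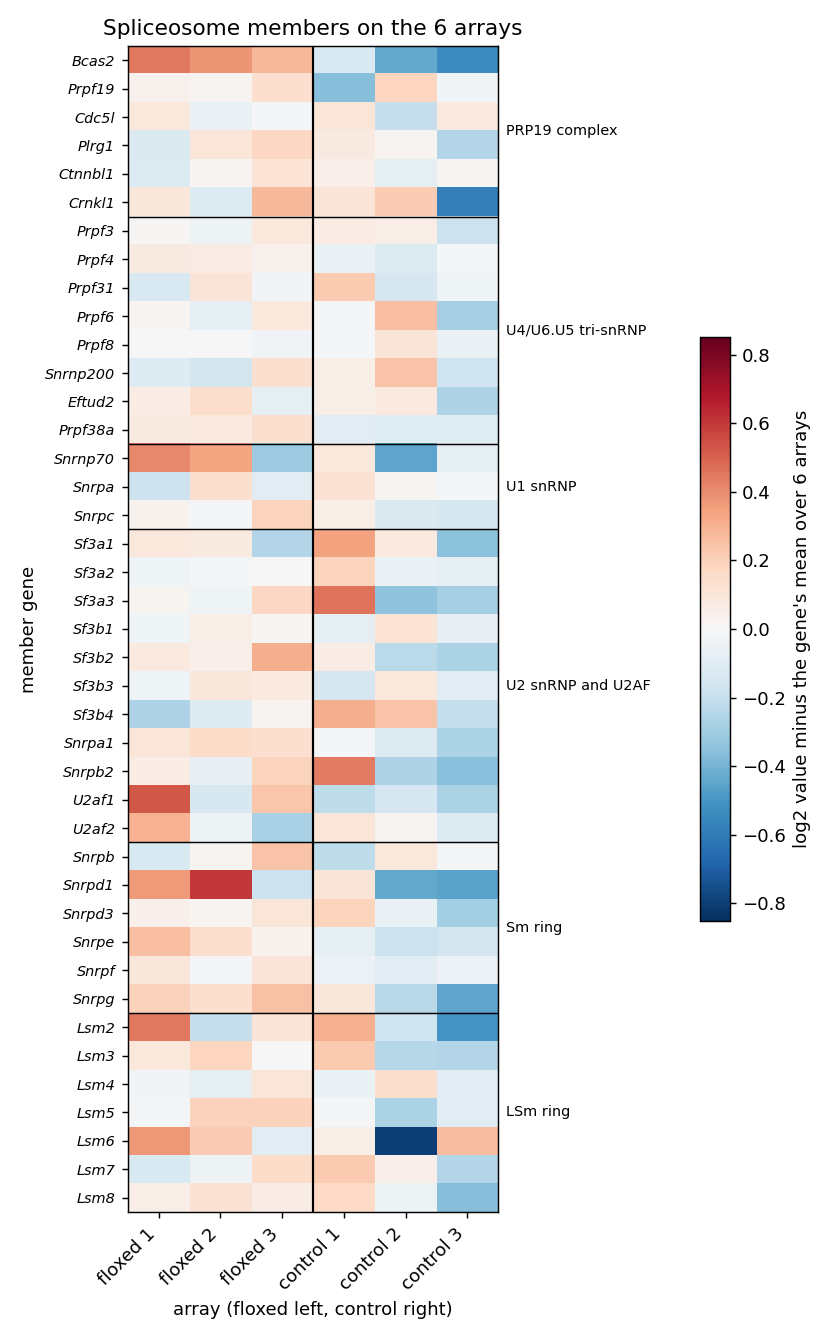
Log2 value of each of the 41 measured members (down the page, grouped by complex) minus that gene's mean over the 6 arrays, with the 3 floxed arrays on the left and the 3 control arrays on the right. Red is above and blue below the gene's mean; control replicate 3 has the lowest value of the 6 arrays in 24 members and the highest in 0.

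A large part of this shift lay on 1 control array. Control replicate 3 had the lowest value in 24 of the 41 members, control replicate 2 in 9 and control replicate 1 in 4. The floxed arrays shared the remaining 4 members, of which 3 fell to floxed replicate 1. Control replicate 1 had the highest value in 11 members, more than any floxed array. The median deviation of the members from their own means was 0.06, 0.02 and 0.10 log2 on the floxed arrays, against 0.06, −0.08 and −0.17 log2 on the control arrays. The 2 groups overlapped at control replicate 1. With control replicate 3 left out, the log2 difference was above 0 for 23 of 41 members, where 50.4% of all genes lay above 0. The median of the members was then 0.02 log2, against 0.0019 over all genes. The list of 24 proliferation genes, of which 23 were measured, also had its lowest level on control replicate 3, with median deviations of 0.10, 0.06 and 0.03 log2 on floxed arrays, against 0.06, −0.08 and −0.17 log2 on control arrays. Its part in the members' shift was not tested.

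Markers of other blood cells also differed between arrays. Of 18 granulocyte and macrophage markers 17 were measured and 16 were lower in floxed arrays, with list means of 8.99 to 9.65 log2 on floxed arrays and 8.97 to 9.93 on control arrays. For B cells 12 of 13 markers were measured and 7 were lower, with list means of 8.58 to 9.12 log2 on floxed arrays and 8.02 to 9.55 on control arrays. For erythroid cells and megakaryocytes 15 of 17 were measured and 14 were lower, with list means of 9.23 to 9.61 log2 on floxed arrays and 9.41 to 9.69 on control arrays. For T and NK cells 8 of 12 were measured and 7 were lower, with list means of 8.11 to 8.59 log2 on floxed arrays and 8.50 to 8.62 on control arrays. For CD34 positive progenitors, which the gate excludes, 8 of 9 were measured, 6 were higher and the median difference was 0.10 log2. Their list means were 10.19 to 10.36 log2 on floxed arrays and 9.99 to 10.46 on control arrays, and their median deviation was lowest on control replicate 3, at −0.30 log2. The differences of these progenitor markers ran from −0.54 for Cd27 to 0.46 for Ctsg. In 2 of the 8 all floxed values lay below all control values, against 2.87% of all genes. In 0 of the 8 did they all lie above, against 5.57% of all genes. The B cell list was lowest on control replicate 3, as was the granulocyte list by a small margin. Without detection calls no marker could be called absent, and the part of these cells in the values of the members was not tested.

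The PRP19 complex, built around a tetramer of the ubiquitin ligase Prpf19, held the member with the highest difference. Bcas2, a small core subunit also known as SPF27, had log2 values of 9.50, 9.43 and 9.34 on the floxed arrays, against 8.92, 8.62 and 8.51 on the control arrays. All 3 floxed values thus lay above all 3 control values. The log2 difference was 0.74 (SE 0.16), a fold of 1.67, and 12 of the 14586 genes had a larger difference. The mean was 9.42 ± 0.08 log2 (SD, n = 3) on floxed arrays and 8.68 ± 0.21 (SD, n = 3) on control arrays. With each array left out in turn the log2 difference of Bcas2 ran from 0.66 to 0.86, and without control replicate 3 it was 0.66.

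The size of the Bcas2 difference depended on how its probe sets were combined, while its sign did not in the settings tried. Bcas2 had 11 probe sets, of which 7 passed the filter. The floxed mean was above the control mean on 11 of 11 probe sets, and all floxed values lay above all control values on 5 of the 11. These probe sets were read on the same 6 arrays and are not replicates of each other. On the probe set with the widest separation, the log2 values were 9.69, 9.50 and 9.52 in floxed arrays, against 8.92, 8.62 and 8.51 in control arrays. Those 3 control values are also the gene medians, so the gene's value on control arrays rests on this probe set. The gene medians on floxed arrays came from other probe sets, so the difference of 0.74 compares unlike probe sets. Within single kept probe sets the log2 difference ran from 0.26 to 0.89. On another kept probe set the log2 values were 11.08, 10.79 and 10.89 in floxed arrays, against 10.94, 10.24 and 10.00 in control arrays. There control replicate 1 lay within the floxed range. Averaging the 7 probe sets instead of taking their median gave a log2 difference of 0.53, with a filter at the 75th percentile it was 0.42, and with no filter it was 0.22. The 4 probe sets below the filter had floxed means of 5.31, 7.11, 5.24 and 6.50 log2, against control means of 4.70, 6.75, 4.98 and 5.89 log2. Each had the higher mean on floxed arrays, but without detection calls they cannot be placed above background.

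**Figure D2:**
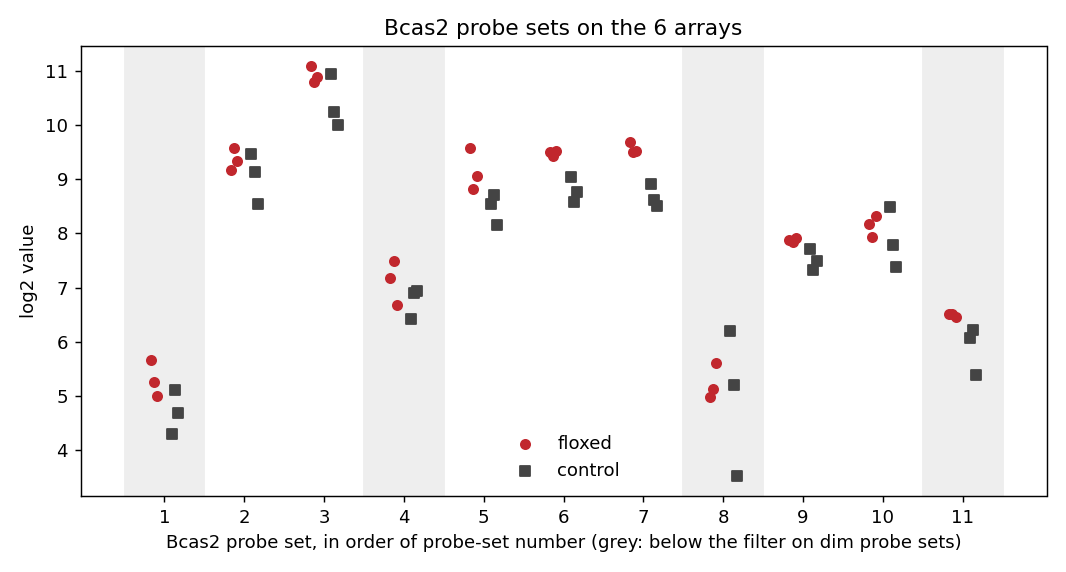
Log2 value of each of the 11 Bcas2 probe sets (across, in order of probe-set number) on the 3 floxed arrays (circles) and the 3 control arrays (squares), with the 4 probe sets below the filter shaded. The floxed mean is the higher on each of the 11, and the circles stand clear of the squares on 5 of them.

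The promoter of Bcas2 is shown because Bcas2 led the list. RefSeq annotation of the build GRCm38.p6 places its window at chr3:103171405-103171704 on the plus strand, around the annotated start. The capitals mark an E-box (CACGTG, the same on both strands), which begins at position −55 from the start, and no other motif searched was found.
Bcas2: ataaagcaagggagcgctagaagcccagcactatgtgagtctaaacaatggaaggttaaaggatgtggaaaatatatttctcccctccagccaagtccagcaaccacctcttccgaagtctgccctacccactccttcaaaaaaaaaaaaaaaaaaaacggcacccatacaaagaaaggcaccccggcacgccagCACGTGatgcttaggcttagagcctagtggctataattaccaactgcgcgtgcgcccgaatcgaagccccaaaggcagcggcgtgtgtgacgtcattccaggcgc
E-boxes bind basic helix-loop-helix factors such as the Myc family. Of the 36 members with a promoter window, 3 held an E-box, against 7.15% of all 32851 windows and 11.0% of the 11526 tested genes with a window. The TCF/LEF motif CTTTGAT, through which beta-catenin partners bind DNA, was found in the windows of 2 of the 36 members, Prpf31 and Snrpa. It was found in 3.73% of all windows and in 3.23% of the tested genes with a window. A match is a string of letters and not a measured site.

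The other 5 subunits of the PRP19 complex had overlapping groups. Prpf19 had log2 values of 11.00, 10.99 and 11.11 on floxed arrays, against 10.61, 11.15 and 10.94 on control arrays (log2 difference 0.13, SE 0.14). Its value turned to −0.01 without control replicate 1, the lowest array of that gene. Cdc5l, a Myb-like protein of the core, had log2 values of 9.65, 9.50 and 9.54 on floxed arrays, against 9.66, 9.36 and 9.64 on control arrays (log2 difference 0.01, SE 0.14). Of its 17 kept probe sets, 10 lay outside the main run of probe-set numbers and several repeated the same values, leaving 10 distinct ones. With the main run alone the log2 difference of Cdc5l was −0.18, although 6 of those 7 probe sets had the higher mean on floxed arrays, since the median then passes between probe sets of unlike level. The value of Cdc5l is therefore uncertain in size and sign.

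Plrg1, a WD-repeat partner of Cdc5l, had log2 values of 9.79, 10.01 and 10.08 on floxed arrays, against 9.99, 9.93 and 9.66 on control arrays (log2 difference 0.10, SE 0.14). Without control replicate 3 the difference of Plrg1 was 0.0019. Ctnnbl1, an armadillo-repeat protein named for its likeness to beta-catenin, had log2 values of 9.38, 9.52 and 9.61 on floxed arrays, against 9.54, 9.42 and 9.51 on control arrays. Its log2 difference was 0.01 (SE 0.13), with a 95% confidence interval from −0.28 to 0.31. The 3 control values of Ctnnbl1 thus lay within the floxed range. Crnkl1, the crooked neck homologue that links the complex to the spliceosome, had log2 values of 8.36, 8.15 and 8.53 on floxed arrays, against 8.37, 8.48 and 7.68 on control arrays (log2 difference 0.17, SE 0.23). Its control replicate 3 lay far below the other arrays, and without it the log2 difference was −0.08. The median over the 6 subunits was 0.12 log2, and 0.04 without control replicate 3.

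The U1 snRNP proteins did not share a direction. Snrnp70, which contacts the U1 RNA and regulatory factors, had log2 values of 10.68, 10.61 and 9.96 on floxed arrays, against 10.36, 9.82 and 10.19 on control arrays (log2 difference 0.29, SE 0.20). Floxed replicate 3 lay within the control range, and with single arrays left out the difference ran from 0.14 to 0.52. Snrpa, which binds a stem-loop of the U1 RNA, had log2 values of 10.81, 11.13 and 10.91 on floxed arrays, against 11.11, 11.01 and 10.98 on control arrays (log2 difference −0.08, SE 0.12). Snrpc, which supports recognition of the 5′ splice site, had a log2 difference of 0.14 (SE 0.14), and 2 of its 4 kept probe sets lay outside the main run of numbers. With the main run alone it had 0.32.

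Of the 11 genes of the U2 snRNP and U2AF, 7 had a difference above 0, with a median of 0.10 log2, and of −0.01 without control replicate 3. U2af1, the subunit of U2AF that reads the AG at the 3′ splice site, had log2 values of 10.52, 9.86 and 10.23 on floxed arrays, against 9.78, 9.85 and 9.72 on control arrays (log2 difference 0.42, SE 0.17). The groups did not overlap, but floxed replicate 2 and control replicate 2 were almost equal. Without floxed replicate 1, its highest array, U2af1 had a log2 difference of 0.26. All 7 kept probe sets of U2af1 had the higher mean in floxed arrays, and 4 of them did not overlap. Its partner U2af2, which binds the polypyrimidine tract, had a log2 difference of −0.01 (SE 0.16), with 3 of 8 kept probe sets above 0.

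Within the U2 particle, both genes of the RNA-binding pair had a difference above 0, and the SF3 factors lay on both sides of 0. Snrpa1, which with Snrpb2 binds the U2 RNA, had log2 values of 9.54, 9.59 and 9.58 on floxed arrays, against 9.42, 9.32 and 9.17 on control arrays (log2 difference 0.27, SE 0.13). All floxed values of Snrpa1 lay above all control values, and 9 of its 10 probe sets had the higher mean in floxed arrays. Its partner Snrpb2 had a log2 difference of 0.12 (SE 0.19), and −0.03 without control replicate 3. Sf3b1, the large subunit that clamps the branch site, had log2 values of 11.27, 11.37 and 11.32 on floxed arrays, against 11.24, 11.42 and 11.24 on control arrays. Its log2 difference of 0.02 (SE 0.11) had a 95% confidence interval from −0.21 to 0.26. Sf3b3, a scaffold of the same SF3B complex, had a log2 difference of 0.10 (SE 0.11), and Sf3b2 had 0.29 (SE 0.15).

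Sf3b4, the SF3B subunit that binds next to the branch site, had the lowest difference of all members. Its log2 values were 9.26, 9.41 and 9.55 on floxed arrays, against 9.83, 9.77 and 9.32 on control arrays (log2 difference −0.23, SE 0.17). Control replicate 3 lay within the floxed range, and without it the difference was −0.39. Only 1 of 4 probe sets of Sf3b4 passed the filter, and with all 4 the value was 0.03. The 4 fell in separate runs of probe-set numbers of equal size, so no run was the main one. The numbers do not show whether the kept probe set lies at the gene itself. In the SF3A complex, Sf3a3 had log2 values of 10.25, 10.19 and 10.40 on floxed arrays, against 10.69, 9.88 and 9.95 on control arrays (log2 difference 0.11, SE 0.20). Its control arrays spanned the floxed ones, and its control SD of 0.45 log2 was the largest of the U2 group. With single arrays left out the difference of Sf3a3 ran from −0.04 to 0.37. Sf3a1 and Sf3a2 had −0.06 and −0.04.

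The tri-snRNP and U5 proteins, which include the catalytic scaffold, had the median nearest to that of all genes. Over the 8 measured genes it was 0.03 log2, and it turned to −0.05 without control replicate 3 and to −0.0049 with quantile normalization. Prpf8, the scaffold that holds the active centre, had log2 values of 12.13, 12.12 and 12.10 on floxed arrays, against 12.12, 12.24 and 12.07 on control arrays (log2 difference −0.03, SE 0.09). Of its 45 kept probe sets, 19 had the higher mean in floxed arrays. Snrnp200, the helicase that unwinds U4 from U6, had log2 values of 10.28, 10.23 and 10.52 on floxed arrays, against 10.45, 10.63 and 10.22 on control arrays (log2 difference −0.09, SE 0.14). The groups overlapped for both genes.

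Prpf38a, a factor of the B complex formed before activation, had log2 values of 9.34, 9.35 and 9.41 on floxed arrays, against 9.18, 9.17 and 9.16 on control arrays. All floxed values of Prpf38a lay above all control values, with a log2 difference of 0.20 (SE 0.13). These gene medians came from different probe sets, so their narrow spread is not that of single probe sets. Of its 9 kept probe sets, 8 had the higher mean in floxed arrays and 2 were higher without overlap. On 1 of the 9 the control values were 9.15, 9.46 and 10.08 log2. Prpf4, a U4/U6 protein, had log2 values of 9.34, 9.33 and 9.30 on floxed arrays, against 9.21, 9.15 and 9.25 on control arrays, also without overlap (log2 difference 0.12, SE 0.13). Yet 4 of the 15 kept probe sets of Prpf4 had the higher mean in floxed arrays, so its gene median and most of its probe sets differed in direction. Prpf6, which bridges U5 and U4/U6, had log2 values of 9.17, 9.07 and 9.24 on floxed arrays, against 9.13, 9.40 and 8.86 on control arrays (log2 difference 0.03, SE 0.16). The GTPase gene Eftud2 had a log2 difference of 0.08, and Prpf3 and Prpf31 of the U4/U6 particle had 0.04 and −0.03.

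**Figure D3:**
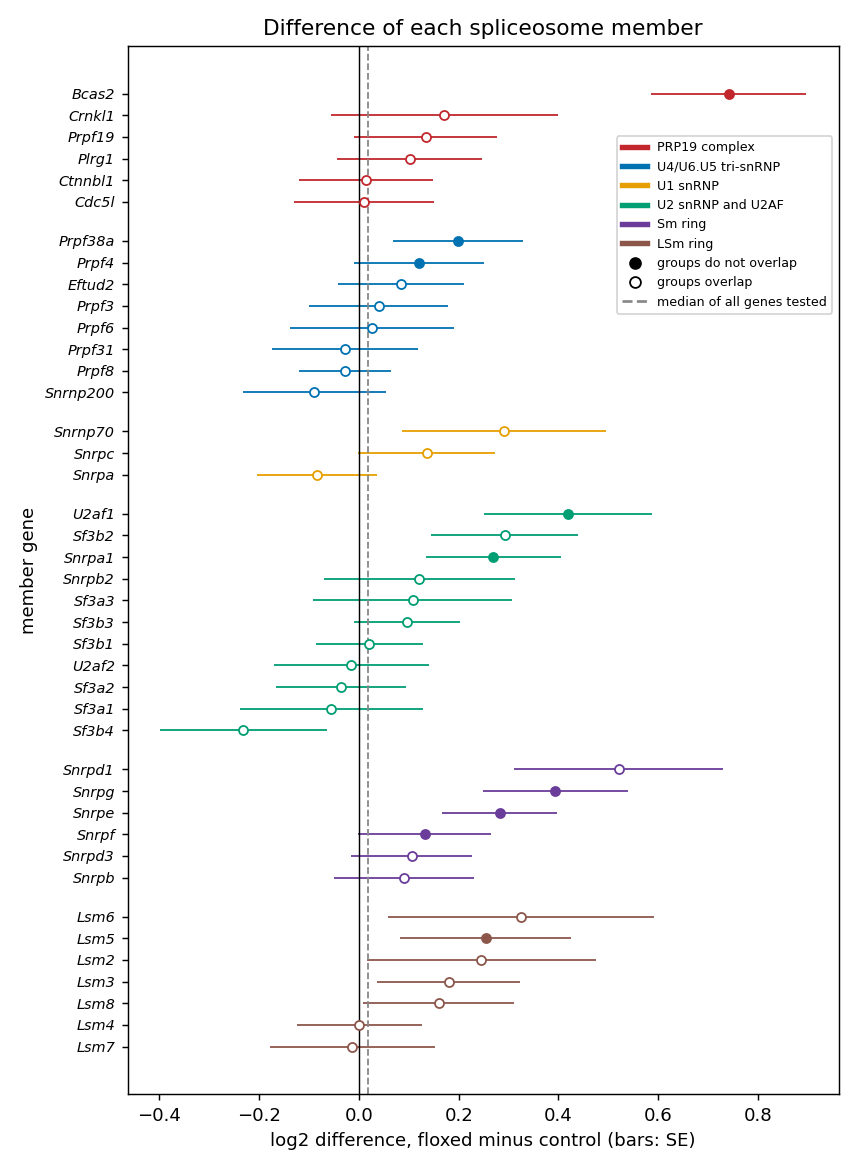
Log2 difference, floxed minus control, of each measured member with its SE (bars), ordered within each complex; filled points are the 9 members whose groups do not overlap. Bcas2 stands at 0.74 and Sf3b4 at −0.23, and the dashed line marks the median of all genes tested at 0.02.

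The Sm ring had a group median above that of the other complexes in this setting, and all 6 measured Sm genes had a difference above 0. The median was 0.21 log2, and 0.21 without control replicate 3. Without control replicate 1 it was 0.27, below the 0.31 of the LSm ring, so the order of the complexes depends on the arrays used. Snrpd1 had log2 values of 11.18, 11.42 and 10.64 on floxed arrays, against 10.94, 10.39 and 10.37 on control arrays (log2 difference 0.52, SE 0.21). Floxed replicate 3 lay within the control range, so the groups of Snrpd1 overlapped. Snrpg had log2 values of 10.88, 10.83 and 10.93 on floxed arrays, against 10.78, 10.44 and 10.24 on control arrays, without overlap (log2 difference 0.39, SE 0.15). Without control replicate 3 it had 0.27, and without the 1 probe set outside the main run of numbers it had 0.26.

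Snrpe had log2 values of 10.94, 10.81 and 10.71 on floxed arrays, against 10.60, 10.50 and 10.52 on control arrays (log2 difference 0.28, SE 0.12). Its groups did not overlap, and 4 of 4 kept probe sets had the higher mean in floxed arrays. Snrpf had log2 values of 9.32, 9.21 and 9.33 on floxed arrays, against 9.17, 9.12 and 9.17 on control arrays, also without overlap (log2 difference 0.13, SE 0.13). It rested on 2 kept probe sets, of which 1 was higher in floxed arrays. The groups of Snrpd3 and Snrpb overlapped. Snrpd3 had log2 values of 12.28, 12.25 and 12.34 on floxed arrays, against 12.43, 12.18 and 11.95 on control arrays (log2 difference 0.11, SE 0.12), and −0.01 without control replicate 3. Snrpb had log2 values of 10.28, 10.44 and 10.65 on floxed arrays, against 10.20, 10.50 and 10.40 on control arrays (log2 difference 0.09, SE 0.14).

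The LSm ring on the U6 RNA had a median of 0.18 log2 over 7 genes, of which 6 lay above 0, and of 0.05 without control replicate 3. Lsm6 had log2 values of 8.51, 8.36 and 8.04 on floxed arrays, against 8.19, 7.34 and 8.40 on control arrays (log2 difference 0.32, SE 0.27). Control replicate 2 was far below the other arrays, and without it the difference was 0.01. Lsm6 rested on 2 probe sets in separate runs of probe-set numbers, so neither run was the main one. Lsm5 had log2 values of 8.06, 8.27 and 8.27 on floxed arrays, against 8.06, 7.81 and 7.98 on control arrays (log2 difference 0.25, SE 0.17). Its groups did not overlap by a narrow margin, since floxed replicate 1 and control replicate 1 were almost equal, and with the 75th percentile filter it had −0.05.

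Lsm3 had log2 values of 11.12, 11.21 and 11.03 on floxed arrays, against 11.25, 10.79 and 10.78 on control arrays (log2 difference 0.18, SE 0.14). Lsm7 had log2 values of 8.97, 9.05 and 9.25 on floxed arrays, against 9.32, 9.14 and 8.84 on control arrays (log2 difference −0.01, SE 0.17). In both genes control replicate 1 was the highest of the 6 arrays, and without it Lsm3 had 0.33, while without control replicate 3 it had 0.10. Lsm2, Lsm8 and Lsm4 had log2 differences of 0.25, 0.16 and 0.00083, with overlapping groups. Without control replicate 3, Lsm2 had 0.05 and Lsm8 had 0.02.

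Among the 8 members other than Bcas2 whose groups did not overlap, 3 held one of the searched motifs in their promoter window, all of them the ETS motif. ETS factors bind a GGAA core and many of them are active in blood cells. The capitals mark CCGGAAG or its reverse complement CTTCCGG. The Snrpe window lies at chr1:133610231-133610530 on the minus strand, and its 2 matches overlap each other at 3 and 6 bases past the start. The Snrpg window lies at chr6:86371290-86371589 on the plus strand, with a match at position −145 from the start. The Lsm5 window lies at chr6:56704650-56704949 on the minus strand, with matches at positions −209 and 17 from the start.
Snrpe: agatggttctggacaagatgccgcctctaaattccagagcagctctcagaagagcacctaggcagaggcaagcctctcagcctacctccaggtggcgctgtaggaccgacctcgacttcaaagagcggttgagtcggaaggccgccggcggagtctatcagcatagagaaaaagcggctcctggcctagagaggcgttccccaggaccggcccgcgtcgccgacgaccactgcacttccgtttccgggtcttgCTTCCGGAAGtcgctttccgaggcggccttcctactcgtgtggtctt
Snrpg: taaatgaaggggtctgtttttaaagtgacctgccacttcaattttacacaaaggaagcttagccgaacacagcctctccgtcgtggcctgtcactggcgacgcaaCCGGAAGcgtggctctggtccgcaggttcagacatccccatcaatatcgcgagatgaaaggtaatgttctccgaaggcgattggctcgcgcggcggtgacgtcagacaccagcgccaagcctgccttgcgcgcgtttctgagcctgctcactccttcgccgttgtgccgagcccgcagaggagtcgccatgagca
Lsm5: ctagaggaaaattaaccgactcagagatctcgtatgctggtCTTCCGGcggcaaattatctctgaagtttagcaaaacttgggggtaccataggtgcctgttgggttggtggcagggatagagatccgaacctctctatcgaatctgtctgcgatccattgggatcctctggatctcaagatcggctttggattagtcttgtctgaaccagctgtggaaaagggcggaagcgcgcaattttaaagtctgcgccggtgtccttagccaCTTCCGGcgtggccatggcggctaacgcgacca
Over the whole list, 14 of the 36 members with a window held the ETS motif, against 8.86% of all 32851 windows and 17.2% of the 11526 tested genes with a window. The YY1 motif AAGATGGCG was found in 2 of the 36 members, Lsm7 and Sf3a1, against 1.40% of all windows and 3.10% of the tested genes with a window. The NRF1 motif was found in Snrnp70 alone, against 0.97% of all windows and 2.06% of those tested genes. TATAAA was found in 2 members, Sf3b3 and Snrpa, against 13.6% of all windows and 9.89% of those tested genes. Snrnp40, Eftud2, Sf3b4, U2af2, Snrpb, Snrpd1 and Lsm4 had no entry in the promoter table.

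Other genes of the splicing pathway lay on the same side as the members and by a like amount. Of 132 such genes in 7 lists, 122 were measured, 91 (74.6%) had a difference above 0, against 54.2% of all genes, and the median was 0.12 log2. In limma 0 of the 122 passed over all genes, with 6 (4.92%) at an unadjusted p under 0.05, against 3.70% of all genes. All floxed values lay above all control values for 11 of the 122, against 5.57% of all genes, and below them for 2, against 2.87%. Among factors related to the PRP19 complex and the catalytic steps, 17 of 23 lay above 0. Cwc15, a partner of the complex, had log2 values of 9.72, 9.70 and 10.03 on floxed arrays, against 9.88, 9.23 and 8.89 on control arrays (log2 difference 0.48, SE 0.23). Cwc22, which loads the exon junction complex, had 8.37, 8.31 and 8.40 on floxed arrays, against 8.63, 8.71 and 8.56 on control arrays (log2 difference −0.27, SE 0.15), with no overlap.

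Among other U1, U2 and tri-snRNP factors 20 of 29 lay above 0, with the U1-associated Luc7l3 at 0.58 (SE 0.20) and the U5 protein gene Txnl4a at −0.21 (SE 0.17). Luc7l3 had log2 values of 10.62, 10.20 and 9.76 on floxed arrays, against 9.66, 9.47 and 9.70 on control arrays, without overlap. SR proteins, which mark exons, lay above 0 in 12 of 14 genes, from −0.10 for Srrm1 to 0.40 for Tra2a. The hnRNP genes, many of whose products repress exons, lay above 0 in 19 of 25, from −0.12 for Ptbp3 to 0.44 for Hnrnpd. For SR and hnRNP genes floxed replicate 1 was the highest array, with median deviations of 0.21 and 0.17 log2, and control replicate 3 lay close to the other controls, at −0.08 and −0.03 log2.

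Exon junction complex genes lay above 0 in 7 of 7, against 54.2% of all genes, and 3 of the 7 were higher without overlap, against 5.57% of all genes. Eif4a3, its helicase, had log2 values of 9.87, 9.79 and 9.85 on floxed arrays, against 9.66, 9.52 and 9.17 on control arrays (log2 difference 0.39, SE 0.15), and Casc3 had 0.0029. Genes of the minor spliceosome, which removes a rare class of introns, lay above 0 in 5 of 7, with Snrnp48 at 0.37 and Zmat5 at −0.12. Genes for Sm ring assembly lay above 0 in 11 of 17, with Lsm1 at 0.48 and the methyltransferase gene Prmt5 at −0.25. Lsm1 takes the place of Lsm8 in the cytoplasmic ring that acts in mRNA decay. The assembly list was lowest on control replicate 3, at −0.31 log2.

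**Figure D4:**
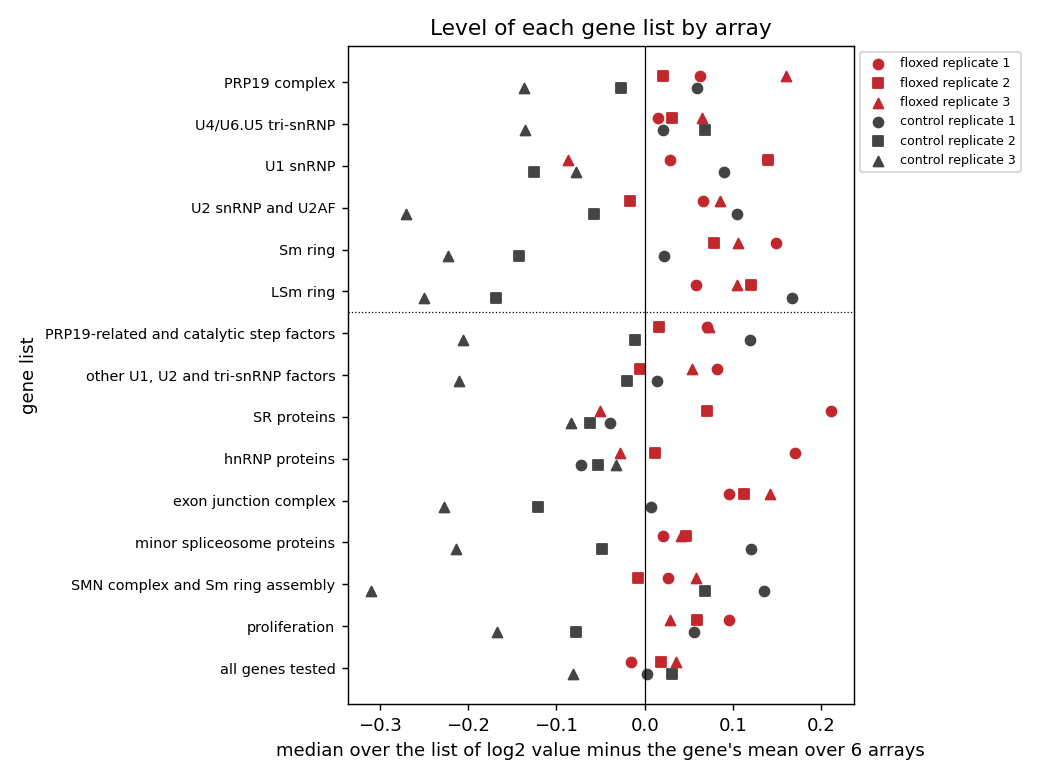
Median over each list (down the page; members above the dotted line) of the log2 value minus the gene's mean over 6 arrays, for 3 floxed arrays (red) and 3 control arrays (dark grey), with a symbol for each replicate number. Control replicate 3 is the lowest array for all lists but U1, where control replicate 2 is, and hnRNP, where control replicate 1 is, and reaches −0.31 for Sm ring assembly, while all genes tested lie between −0.08 and 0.03.

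The spread within each group also differed for the members as it did for other genes. The control SD exceeded the floxed SD in 30 of 41 members, and the median SD was 0.11 log2 in floxed arrays and 0.18 in control arrays. Over all genes tested the medians were 0.14 log2 in floxed arrays and 0.23 in control arrays. Control SDs were largest for Lsm6 (0.56), Sf3a3 (0.45) and Snrpb2 (0.44). At the level of single probe sets, 325 of the 486 kept probe sets of members had the higher mean in floxed arrays, against 58.9% of all kept probe sets with 1 gene. All floxed values lay above all control values on 43 of the 486, where the share over all kept probe sets with 1 gene was 6.36%. All floxed values lay below all control values on 13 of the 486, against 3271 of the 110361 kept probe sets with 1 gene.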

How the data were processed

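The arrays measured expression in 6 samples, grouped by their titles. The authors deposited log2 values for 241576 probe sets, with array medians between 7.56 and 7.65. The base was taken from the range, 2.44 to 14.53. The submitters' processing notes name MAS5 but give it no role, and background correction and normalization are not given in the sources used here. Precision is limited by having 3 arrays per group. Detection calls were not used here.

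By the platform annotation, 212097 probe sets carry 1 gene, 4475 carry several and 25004 are unnamed. Symbols were updated through RefSeq GRCm38.p6 (17621 symbols current, 2742 updated, 53 unmatched). Kept probe sets reached a mean of 7.60, the median of all means. Gene medians over kept probe sets were fitted for 14586 genes with limma 3.58.1 in R 4.3.3 (trend, two-sided, Benjamini-Hochberg, threshold 0.05), and differences are floxed minus control. The steps were tested on simulated data with known differences, independent noise and the same SD in both groups. There 66.2% of genes with a log2 difference of 1 were recovered, and 95.3% of those with 2. Smaller differences, such as those of the members, were not simulated.

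The members, lists and alternatives were chosen with earlier results of these data known. Named with values were the PRP19 complex, and in each other complex the members with the highest and lowest difference, the highest mean and the largest control SD, in each pathway list the highest and lowest gene, and Ctnnb1, Kit, Ly6a and Cd34. Other members were named after their values were seen. Alternatives were normalization, filter, mean of probe sets, variance model, array weights, a replicate block and leaving out each array. Restriction to a member's largest run of probe-set numbers was added after the data were seen. Promoter windows are RefSeq's, and 36 of 43 members had one.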

Additional observations from a re-analysis of the deposited data

How the results depend on the processing

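Leaving out single arrays moved some results. Genes past the threshold in limma ran from 0 to 2, the highest without control replicate 1. Members without overlap, counting both directions, ran from 10 to 18, also the highest without control replicate 1. Members higher without overlap ran from 9 without control replicate 3 to 18 without control replicate 1. The share of all genes higher without overlap ran from 7.91% to 20.5%, again the highest without that array. The median of the U4/U6.U5 tri-snRNP ran from −0.047 to 0.085 log2 and that of U2 and U2AF from −0.010 to 0.12, each below 0 only without control replicate 3 among these. Quantile normalization and array weights also put the tri-snRNP below 0 (−0.0049 and −0.0034). The median of all members ran from 0.02 to 0.14 log2, and under none of the 16 alternatives did it change sign. With no filter, 2 genes passed and 5 members did not overlap, counting both directions. No share of all genes for that setting alone is given here, so nothing is read from that count. Over the 12 alternatives with such a count, the share of all genes higher without overlap ran from 4.74% to 20.5%. With the mean of probe sets 1 gene passed, Ctnnb1. The 75th percentile filter gave medians of 0.23 log2 for the PRP19 complex and 0.30 for the Sm ring. The largest run of probe-set numbers gave 0.29 for U1. Array weights, which put little weight on control replicates 1 and 3 (0.27 and 0.40, against 3.37 on control replicate 2), gave 404 genes (2.77%), among them 4 members. These were Bcas2 (0.80 log2), Snrpd1 (0.74), Snrpg (0.42) and Lsm6 (0.81), which is a description, since the members were chosen on this contrast. The most heavily weighted array, control replicate 2, was also the lowest array of Lsm6, at 7.34 log2. Without that array and with equal weights, Lsm6 had a log2 difference of 0.01. Of 655 values of single members, 627 moved by less than the replicate SD and 68 changed sign. None of these was past the threshold with equal weights. Causes were not tested, beyond the fewer arrays or probe sets that a setting leaves.

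The labels do not say whether arrays with the same replicate number were paired. Deviations of same-numbered arrays from their group means correlated at 0.20, −0.0036 and −0.24 across genes. These values do not share a sign, and they can neither show nor exclude a pairing. With the replicate block 0 genes passed, as without it.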
